A study of Mus musculus with 4 samples.

Results

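Among 32150 kept cells from mouse liver, 1644 were CD8 T cells that held transcripts of Cxcr6, Gzmk or Pdcd1. Of these, 99 came from HFD_EXE, 1441 from HFD_sed and 104 from S, and they are described here against the other 732 CD8 T cells of the same libraries. A cell was chosen when it had at least 500 unique molecular identifiers (UMIs, each standing for 1 captured transcript), at least 300 genes and under 15% mitochondrial UMIs. It also needed at least 2 UMIs of Cd3d, Cd3e and Cd3g together, which encode the CD3 chains of the T cell receptor complex, and at least 1 of Cd8a and Cd8b1, the chains of the CD8 co-receptor. The last step asked for at least 1 UMI of Cxcr6, Gzmk and Pdcd1 together, no UMI of Foxp3 (regulatory T cells), Trdc (gamma-delta T cells) or Cd79a (B cells), and at most 1 of Clec4f (Kupffer cells, the resident macrophages of liver). The members were therefore chosen by their own measured transcripts, and levels of these genes in them are descriptions.

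The study took non-parenchymal cells, the liver cells other than hepatocytes, from C57BL/6J mice of 30 weeks, and prepared droplet 3' libraries. Its labels give HFD_EXE (high fat diet, EXE), HFD_sed (high fat diet, sed), S and E, and leave the letters unexplained; all share strain, age, tissue and method, and the number of mice behind a library is not given. Each group is 1 library. Differences between groups therefore have no replicate check and no p-value, and the intervals below are 95% and cover counting error only. Cells of E were not analysed here.

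CD8 T cells kill infected or transformed cells by releasing granzymes through perforin pores and by Fas ligand, and they recruit other cells with chemokines. Under lasting antigen they can acquire inhibitory receptors such as PD-1 (Pdcd1), together with the nuclear factor Tox, a state called exhaustion. CXCR6 is the receptor for CXCL16, a chemokine displayed by cells of the liver sinusoids, and marks T cells lodged in liver. Gzmk encodes granzyme K, a protease of memory-like effector cells. A CD8 T cell that has met no antigen keeps instead Ccr7, Lef1 and Tcf7, which guide it to lymph nodes and keep it quiescent.

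The 3 genes that chose the cells, and Ccl3, the chemokine gene with a wide spread between the libraries below, have these 250 bases before their start sites in RefSeq (build GRCm38.p6), shown so that the regulatory letters of the selecting genes can be read beside their levels. They lie at chr9:123806227-123806476 on the plus strand for Cxcr6, at chr13:113180966-113181215 on the minus strand for Gzmk, at chr1:94052554-94052803 on the minus strand for Pdcd1 and at chr11:83649379-83649628 on the minus strand for Ccl3. Each is printed 5' to 3' in the direction of its gene. Capitals mark letters of the RUNX motif (TGTGGT, or ACCACA on the other strand) and of the NFAT core (GGAAA, or TTTCC); the AP-1 letters TGANTCA were searched on both strands as well.
Cxcr6: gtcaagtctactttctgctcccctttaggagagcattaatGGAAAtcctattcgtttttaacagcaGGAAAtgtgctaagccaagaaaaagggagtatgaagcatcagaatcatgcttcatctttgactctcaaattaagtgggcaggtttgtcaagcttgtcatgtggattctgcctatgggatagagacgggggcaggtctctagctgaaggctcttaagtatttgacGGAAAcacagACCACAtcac
Gzmk: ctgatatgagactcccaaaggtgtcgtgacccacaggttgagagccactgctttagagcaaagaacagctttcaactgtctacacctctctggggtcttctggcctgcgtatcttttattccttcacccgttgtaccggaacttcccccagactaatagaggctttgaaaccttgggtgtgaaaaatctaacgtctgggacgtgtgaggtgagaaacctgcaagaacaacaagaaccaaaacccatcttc
Pdcd1: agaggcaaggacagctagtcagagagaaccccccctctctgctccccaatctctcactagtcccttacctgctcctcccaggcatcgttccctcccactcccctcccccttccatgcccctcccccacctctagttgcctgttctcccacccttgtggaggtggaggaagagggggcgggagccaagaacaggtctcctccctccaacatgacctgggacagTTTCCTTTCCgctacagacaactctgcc
Ccl3: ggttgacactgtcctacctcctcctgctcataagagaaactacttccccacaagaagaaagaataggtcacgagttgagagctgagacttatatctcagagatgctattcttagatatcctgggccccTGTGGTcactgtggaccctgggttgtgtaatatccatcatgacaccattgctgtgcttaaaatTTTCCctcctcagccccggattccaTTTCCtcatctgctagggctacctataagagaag
The Cxcr6 stretch held 1 RUNX match and 3 NFAT matches, that of Pdcd1 2 adjoining NFAT matches, and that of Ccl3 1 RUNX and 2 NFAT matches. None of the searched letters was found in the Gzmk stretch. Over 27025 mouse promoter stretches of the same length, 14.2% held the RUNX letters, 55.6% the NFAT core and 6.87% the AP-1 letters, so an NFAT match is common. A match is a run of letters and says nothing of binding here.

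The 3 libraries held 11280 to 11752 barcodes, more than the 5000 to 6000 captured cells that the labels give, with 60901242 to 84666844 UMIs in all. Members were shallower in HFD_sed. Their median depth was 5741 UMIs in HFD_EXE, 3421 in HFD_sed and 6133 in S, so shares are also given after thinning every cell to 1500 UMIs, which left out 1, 38 and 0 members in these libraries. Between pairs of the 3 libraries 30 to 43 barcodes were shared, and 0 of them were members in both. A doublet caller scored 7 members of HFD_EXE, 45 of HFD_sed and 2 of S above 0.219, a cut set alike for the 3 libraries. Its own automatic cuts were 0.629 in HFD_EXE, 0.245 in HFD_sed and 0.193 in S. At its automatic cut, 0 of the 10467 kept cells of HFD_EXE were called. Values without doublets rest on the cut of 0.219.

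The selected share of CD8 T cells was highest in HFD_sed. It was 39.3% (interval 33.2 to 45.6) in HFD_EXE, 78.6% (76.7 to 80.5) in HFD_sed and 35.7% (30.2 to 41.5) in S, over 252, 1833 and 291 CD8 T cells. The intervals of HFD_EXE and S overlap, and that of HFD_sed lies apart from both. After thinning, and applying the rule again, the shares were 22.9% in HFD_EXE, 61.8% in HFD_sed and 19.8% in S, in the same order although HFD_sed had the shallowest cells. HFD_EXE and S stood further apart when some groups of cells were left out. Without members of Cxcr6 alone, the members were 53 of 252 in HFD_EXE, 910 of 1833 in HFD_sed and 33 of 291 in S. Without the cells with Ly49 (Klra) receptor transcripts described further on, they were 88 of 217, 1330 of 1685 and 59 of 210 in these libraries. HFD_EXE and S did not stand further apart without doublets, at 92 of 234 and 102 of 281. Nor did they without cells with 1% or more UMIs of other cell types, at 88 of 226 and 99 of 269. Of all kept cells the members made up 0.946% in HFD_EXE, 13.0% in HFD_sed and 0.980% in S. These shares depend on the limits on Cd79a and Clec4f. Those limits left out 6 cells of HFD_EXE, 83 of HFD_sed and 50 of S that met every other step. Exactly 1 Clec4f UMI was found in 21 of 99 members of HFD_EXE, 146 of 1441 of HFD_sed and 49 of 104 of S. CD8 T cells themselves were 31.4% of T cells in HFD_EXE, 62.9% in HFD_sed and 33.3% in S. T cells were taken here as cells with at least 2 UMIs of the Cd3 genes, no UMI of Cd79a and at most 1 of Clec4f.

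**Figure D1:**
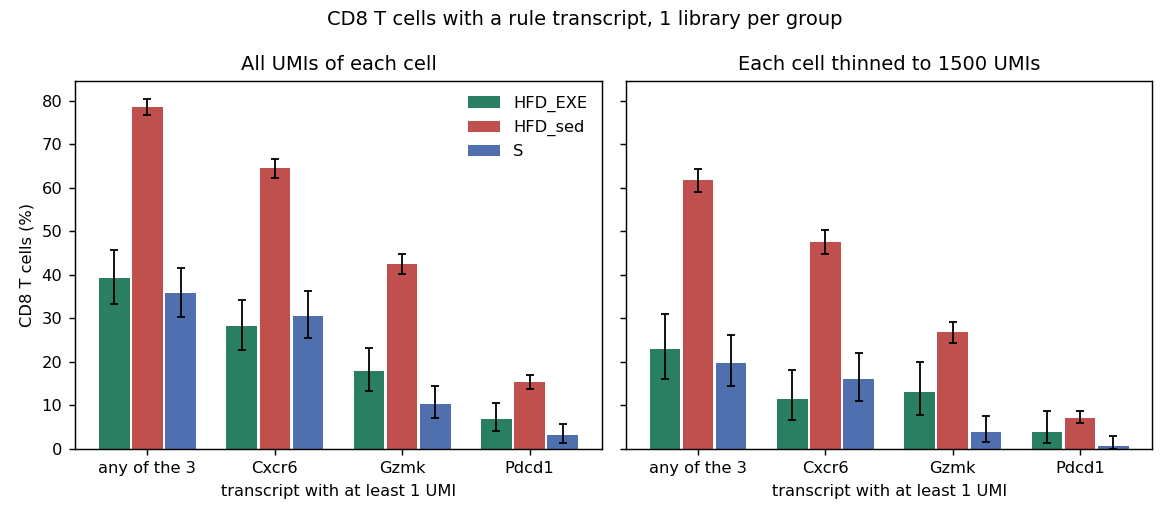
Percent of CD8 T cells of HFD_EXE, HFD_sed and S with a UMI of any of the 3 selecting genes (the members) and of each gene, with all UMIs (left) and after thinning each cell to 1500 UMIs (right); whiskers are 95% exact binomial intervals (counting error only). For any of the 3, HFD_sed stood at 78.6% and 61.8%, above HFD_EXE at 39.3% and 22.9% and S at 35.7% and 19.8%.

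Each selecting gene was found in more CD8 T cells of HFD_sed than of the others. Cxcr6 was detected in 28.2% of CD8 T cells of HFD_EXE, 64.4% of HFD_sed and 30.6% of S. Gzmk was detected in 17.9% of HFD_EXE, 42.5% of HFD_sed and 10.3% of S. For Pdcd1 the shares were 6.75% in HFD_EXE, 15.3% in HFD_sed and 3.09% in S. B cells, which should lack these transcripts, show how much free RNA could add: at the same thinned depth Cxcr6 was in 0.169% of B cells of HFD_EXE, 0.530% of HFD_sed and 0.108% of S, against 11.5%, 47.5% and 16.0% of CD8 T cells in that order. Gzmk was in at most 0.265% of B cells of any library, against 13.0% (7.75 to 19.96), 26.7% (24.4 to 29.2) and 3.74% (1.52 to 7.56) of CD8 T cells, with intervals that do not overlap. Pdcd1 was in at most 0.0883% of B cells, against 3.82%, 7.19% and 0.535% of CD8 T cells, and in S this last share was 1 cell. Median depth was 3739, 3151 and 4136 UMIs in the B cells of these libraries before thinning.

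With all UMIs, Cxcr6 let most members in, and Pdcd1 few. Cxcr6 was detected in 71.7% of members of HFD_EXE, 82.0% of HFD_sed and 85.6% of S. Gzmk was found in 45.5% of members of HFD_EXE, 54.1% of HFD_sed and 28.8% of S. Pdcd1 was found in 17.2% of members of HFD_EXE, 19.5% of HFD_sed and 8.65% of S, so at this depth most members entered without the defining transcript of exhaustion. They are named here by the rule and not as exhausted cells, the more so as 45 of the 104 members of S carried Ly49 receptor transcripts and seldom Cd8b1, as shown further on. Cxcr6 alone had let in 46.5% of members in HFD_EXE, 36.9% in HFD_sed and 68.3% in S. After thinning these shares were 33.3% in HFD_EXE (10 of 30 members), 48.8% in HFD_sed and 81.1% in S, so HFD_EXE and HFD_sed changed places. At that depth Cxcr6 was in 15 and Gzmk in 17 of the 30 members of HFD_EXE. Cells with both Cxcr6 and Gzmk and no Pdcd1 made up 14.1% of members of HFD_EXE, 31.2% of HFD_sed and 11.5% of S. At the edge of the rule, 34 members of HFD_EXE, 362 of HFD_sed and 38 of S had exactly 1 UMI of the 3 genes, and Gzmb was detected in 20.6%, 54.7% and 50% of them. The 153, 392 and 187 CD8 T cells just outside it, with 0 UMIs, had Gzmb in 3.27%, 37.0% and 13.9%.

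**Figure D2:**
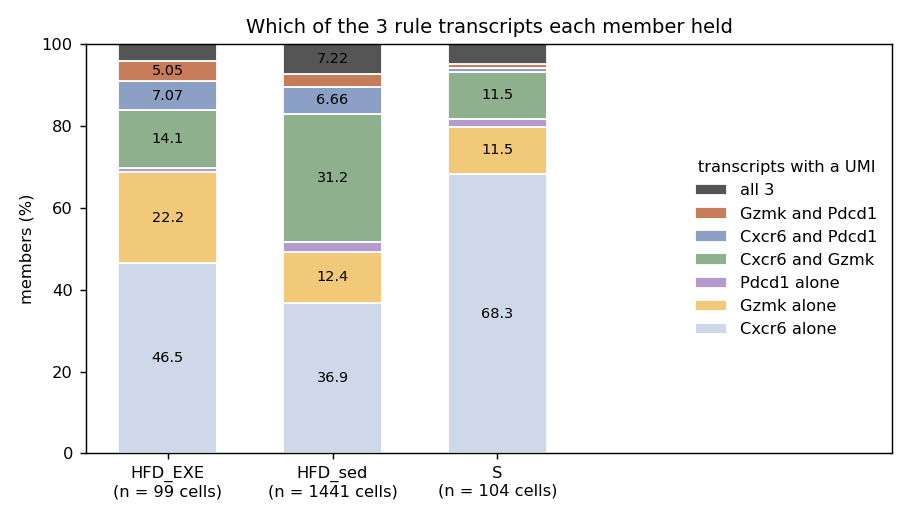
Members of HFD_EXE, HFD_sed and S, in percent of each library's members, stacked by which of Cxcr6, Gzmk and Pdcd1 were detected in the cell with all UMIs. Cxcr6 alone accounted for 46.5% in HFD_EXE, 36.9% in HFD_sed and 68.3% in S.

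Markers of other cells were present at levels that differed between the libraries. Summed over 10 genes of liver sinusoidal endothelium, members held 2499 CPM in HFD_EXE, 1174 CPM in HFD_sed and 940 CPM in S, where CPM is UMIs per 1000000 UMIs of the members of a library. Kupffer cell genes summed to 315 CPM in HFD_EXE, 1385 CPM in HFD_sed and 558 CPM in S, and hepatocyte genes to 813 CPM, 576 CPM and 1853 CPM in these libraries. Every one of these lists was higher in the cells outside the T cell gate, for example 15240 CPM, 6883 CPM and 11800 CPM for endothelium. All 10 endothelial, 11 Kupffer and 15 hepatocyte genes had at least 1 UMI in the members of each library. The list of B cells summed to 412 CPM in HFD_EXE, 273 CPM in HFD_sed and 151 CPM in S, with 4, 1 and 4 of its 9 genes at 0. Dendritic cell genes, some of which T cells can also carry, summed to 385 CPM in HFD_EXE, 1694 CPM in HFD_sed and 522 CPM in S, with 2, 0 and 3 of 10 at 0. Neutrophil genes summed to 186 CPM, 458 CPM and 119 CPM, with at most 1 of 9 at 0. Genes of erythroid cells summed to 118 CPM in HFD_EXE, 683 CPM in HFD_sed and 33.5 CPM in S, with 2, 1 and 2 of 6 at 0. Within the T and NK lineages, NK cell and ILC1 genes summed to 1029 CPM, 1974 CPM and 2037 CPM, innate-like T cell genes to 864 CPM, 615 CPM and 1388 CPM, CD4 T cell genes to 186 CPM, 230 CPM and 162 CPM, and gamma-delta genes to 38.2 CPM, 45.7 CPM and 86.8 CPM. The part of other cells in the differences below was not tested, except where a value without cells rich in such transcripts is given.

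For each gene, the summed UMIs of members were compared between HFD_sed and S and between HFD_EXE and HFD_sed. A gene was called higher or lower when it differed at least 2-fold, when the interval of the ratio left out 1, and when both libraries together held at least 20 UMIs. HFD_sed over S had 11505 such measured genes, and 8.27% of them were called: 594 (5.16%) as higher and 357 (3.1%) as lower. The median log2 ratio over all of them was 0.10. HFD_EXE over HFD_sed had 11499, and 9.54% of them were called: 479 (4.17%) as higher and 618 (5.37%) as lower, around a median of -0.11. Both comparisons share the HFD_sed members, so a high count there enters both. Counts for each gene list are read against these percentages.

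Granzymes and the killing machinery gave a mixed picture in HFD_sed over S and were lower in part in HFD_EXE. Gzmb, the granzyme that starts cell death through caspases, stood at 345 CPM in HFD_EXE, 855 CPM in HFD_sed and 618 CPM in S. Gzma, a second main granzyme of killer cells, stood at 326 CPM in HFD_EXE, 887 CPM in HFD_sed and 911 CPM in S. With all members both were lowest in HFD_EXE, with a log2 ratio over HFD_sed of -1.31 (-1.51 to -1.11) for Gzmb and -1.44 (-1.65 to -1.24) for Gzma. After thinning, the Gzma ratio turned to 0.22, and for Gzmb it was -0.71 without the Klra-positive cells described below, short of a 2-fold difference. Without those cells both granzymes were lowest in S: Gzma had 139 CPM in HFD_EXE, 392 CPM in HFD_sed and 53.2 CPM in S, and Gzmb 382 CPM, 627 CPM and 249 CPM. Gzmk had 151 CPM in HFD_EXE, 214 CPM in HFD_sed and 62.5 CPM in S, 3.43-fold higher in HFD_sed than in S, though its detection helped choose the cells; without members of Cxcr6 alone the log2 ratio was 0.78, against 1.78. Gzmm, found in resting and innate-like killer cells, went the other way with 55.7 CPM in HFD_EXE, 10.3 CPM in HFD_sed and 6.09 CPM in S. Gzmc had 20.7 CPM in HFD_EXE, 1.15 CPM in HFD_sed and 4.57 CPM in S.

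The pore-forming gene Prf1 was close in all libraries, at 132 CPM in HFD_EXE, 124 CPM in HFD_sed and 104 CPM in S. Nkg7, a granule membrane protein, stood at 1141 CPM, 1441 CPM and 1319 CPM. Neither was called in either comparison. Fasl, the ligand that triggers the death receptor Fas, had 124 CPM in HFD_EXE, 258 CPM in HFD_sed and 136 CPM in S and was called lower in HFD_EXE than in HFD_sed (2.08-fold). Ifng, the macrophage-activating cytokine interferon gamma, had 93.9 CPM in HFD_EXE, 184 CPM in HFD_sed and 230 CPM in S. Of 15 cytotoxic genes measured in HFD_EXE over HFD_sed, 2 were called higher and 3 lower, with a median of -0.34. In HFD_sed over S, 1 of 14 was called higher, 0 lower, and the median was 0.29; it was 0.76 without the Klra-positive cells.

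**Figure D3:**
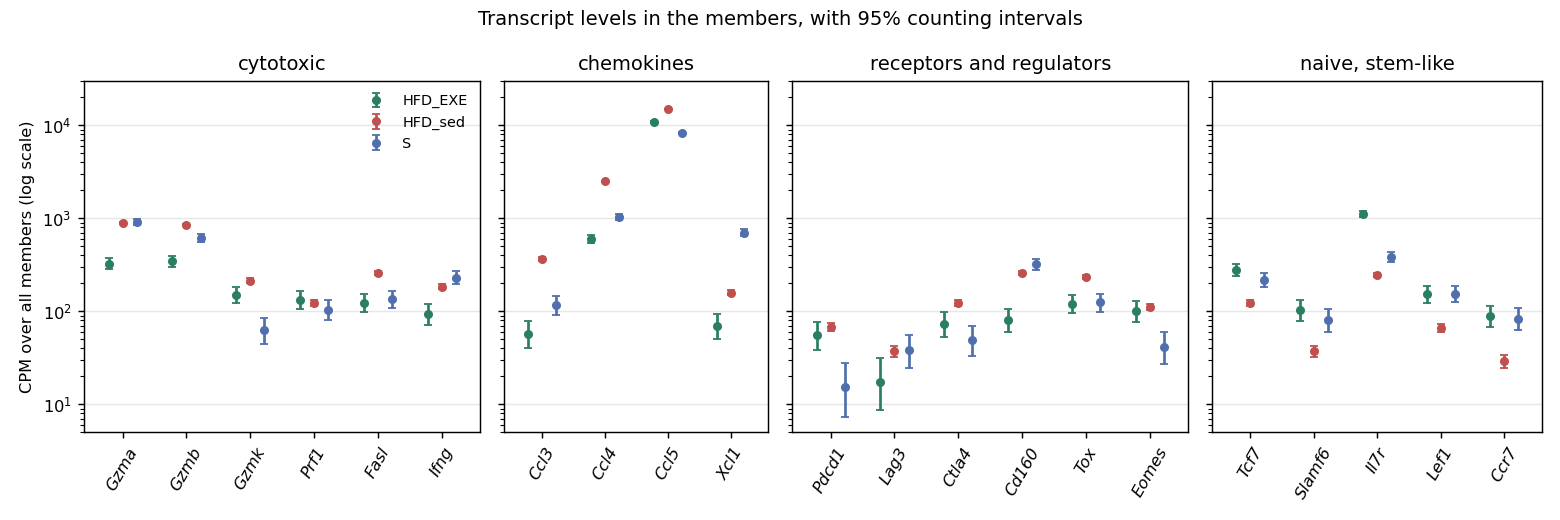
Summed level of named genes in the members of HFD_EXE, HFD_sed and S, in CPM on a log axis, with 95% Poisson intervals. Ccl3 and Ccl4 peaked in HFD_sed at 365 and 2499 CPM, and Tcf7 had its lowest level there at 123 CPM.

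Inhibitory receptors differed gene by gene. Pdcd1, the receptor PD-1, had 55.7 CPM (35 UMIs) in HFD_EXE, 68.2 CPM (416 UMIs) in HFD_sed and 15.2 CPM (10 UMIs) in S. Ctla4, which competes with CD28 for its ligands, had 73.2 CPM in HFD_EXE, 124 CPM in HFD_sed and 48.8 CPM in S. Pdcd1 and Ctla4 were called higher in HFD_sed than in S, by log2 ratios of 2.16 (1.27 to 3.23) and 1.34 (0.83 to 1.90). Lag3, which binds MHC class II, had 17.5 CPM in HFD_EXE, 37.4 CPM in HFD_sed and 38.1 CPM in S and was called lower in HFD_EXE than in HFD_sed (11 UMIs in HFD_EXE). Cd160 had 81.1 CPM in HFD_EXE, 256 CPM in HFD_sed and 323 CPM in S, and Cd244a, a receptor of the SLAM family, 12.7 CPM, 49.2 CPM and 85.3 CPM in these libraries. Both were called lower in HFD_EXE than in HFD_sed. Havcr2 (TIM-3), a late marker of exhaustion, rested on 4 UMIs in HFD_EXE, 73 in HFD_sed and 2 in S, and Tigit on 2, 43 and 6. Against these, Klrc1, which encodes the inhibitory NK receptor NKG2A, was called higher in HFD_EXE, at 148 CPM, than in HFD_sed, at 45.4 CPM, with 89.9 CPM in S. Of 14 inhibitory receptors, 4 (Pdcd1, Ctla4, Lair1 and Havcr2) were called higher and 1 (Btla) lower in HFD_sed over S (median -0.07), and 1 higher and 4 lower in HFD_EXE over HFD_sed (median -0.82). Without the Klra-positive cells Ctla4 in HFD_sed over S was 0.96, and after thinning Cd160 in HFD_EXE over HFD_sed was -0.81, both short of 2-fold. Pdcd1 helped choose the cells, so its own call is partly set by the rule. The first median was 1.01 without the Klra-positive cells, and the second 0.03 without members that had entered by Cxcr6 alone.

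Detection of several checkpoints in 1 cell was counted next, since exhausted cells carry several. At least 2 of Pdcd1, Lag3, Havcr2, Tigit and Ctla4 were found in 9 of 99 members of HFD_EXE (9.09%), 206 of 1441 of HFD_sed (14.3%) and 9 of 104 of S (8.65%). At the thinned depth the shares were 5.10% in HFD_EXE, 4.06% in HFD_sed and 2.88% in S, so their order changed with depth and no library stood apart. Among the other CD8 T cells 0 of 153 in HFD_EXE had at least 2, 8 of 392 in HFD_sed (2.04%) and 1 of 187 in S (0.535%); a floor of 3 cells puts the share with such UMIs at up to 1.96% for the 0 of 153. Pdcd1 was itself a selecting gene, which fixes part of the gap between members and other cells.

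Regulators of exhaustion were higher in HFD_sed for some genes. Tox, the factor that sets the exhausted state of chromatin, had 121 CPM in HFD_EXE, 236 CPM in HFD_sed and 125 CPM in S. It was 1.89-fold higher in HFD_sed than in S and 1.95-fold lower in HFD_EXE than in HFD_sed, just short of 2-fold in both. Without the Klra-positive cells Tox had 113 CPM in HFD_EXE, 248 CPM in HFD_sed and 82.2 CPM in S, past 2-fold in both. Eomes, a T-box factor of memory and exhausted cells, had 100.2 CPM in HFD_EXE, 111 CPM in HFD_sed and 41.1 CPM in S, 2.71-fold higher in HFD_sed than in S. Nfatc1, a calcium-regulated factor, and Bhlhe40, a repressor induced by receptor signals, were called lower in HFD_EXE than in HFD_sed. They had 71.6 CPM and 90.7 CPM in HFD_EXE, 201 CPM and 259 CPM in HFD_sed, and 113 CPM and 193 CPM in S. Without members of Cxcr6 alone, Bhlhe40 was at -0.96, against -1.51. Maf, a factor of helper and exhausted T cells, was highest in HFD_EXE with 659 CPM, against 337 CPM in HFD_sed and 207 CPM in S; other cells of liver express Maf as well. Of 14 regulators, 2 were called higher and 1 lower in HFD_sed over S (median 0.48), and 0 higher and 4 lower in HFD_EXE over HFD_sed (median -0.94).

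The inflammatory chemokines Ccl3 and Ccl4, which draw in further T cells and monocytes, were highest in members of HFD_sed. Ccl3 had 57.3 CPM in HFD_EXE, 365 CPM in HFD_sed and 116 CPM in S. Ccl4 had 603 CPM in HFD_EXE, 2499 CPM in HFD_sed and 1037 CPM in S, and was detected in 28.6%, 69.1% and 45.2% of thinned members. The log2 ratio of HFD_EXE over HFD_sed was -2.67 (-3.19 to -2.20) for Ccl3 and -2.05 (-2.20 to -1.90) for Ccl4. That of HFD_sed over S was 1.66 (1.33 to 2.01) for Ccl3 and 1.27 (1.16 to 1.38) for Ccl4. Taken as a gauge of free RNA, B cells held Ccl4 in 4.06% of thinned cells of HFD_EXE, 12.4% of HFD_sed and 8.42% of S, well under the shares of members. The other CD8 T cells were also highest in HFD_sed, with 17.6 CPM of Ccl3 and 213 CPM of Ccl4 in HFD_EXE, 170 CPM and 1006 CPM in HFD_sed, and 40.5 CPM and 169 CPM in S. Cells outside the T cell gate were too, with 126 CPM of Ccl4 in HFD_EXE, 558 CPM in HFD_sed and 218 CPM in S. Thinning moved the Ccl3 ratio of HFD_sed over S to 0.47, no longer past 2-fold.

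Ccl5, the chemokine stored by memory CD8 T cells, was near universal, found in 91.8% of thinned members of HFD_EXE, 99.0% of HFD_sed and 86.5% of S. Its level was 10910 CPM in HFD_EXE, 14980 CPM in HFD_sed and 8321 CPM in S, within 2-fold throughout. Xcl1, lymphotactin, which attracts cross-presenting dendritic cells, had the opposite order to Ccl4 in the HFD_sed and S pair. It had 70.0 CPM in HFD_EXE, 158 CPM in HFD_sed and 702 CPM in S, 4.43-fold lower in HFD_sed than in S with all members. Cxcl10 was 14.7-fold higher in HFD_sed, at 67.1 CPM, than in S, at 4.57 CPM on 3 UMIs (log2 interval 2.32 to 6.16), with 23.9 CPM in HFD_EXE. Of 14 chemokines and cytokines, 3 were called higher and 3 lower in HFD_sed over S, and 0 higher and 4 lower in HFD_EXE over HFD_sed, with medians of -0.06 and -0.82.

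The named genes of naive and stem-like cells were lowest in HFD_sed. Il7r, the survival receptor for interleukin 7, had 1114 CPM in HFD_EXE, 247 CPM in HFD_sed and 387 CPM in S, 4.51-fold higher in HFD_EXE than in HFD_sed. Tcf7, the factor TCF1 of progenitor cells, had 278 CPM in HFD_EXE, 123 CPM in HFD_sed and 219 CPM in S. Both were called higher in HFD_EXE than in HFD_sed, as were Ccr7, Lef1, Satb1 and Dapl1. Dapl1, a marker of quiescent T cells, had the widest gap, at 54.1 CPM in HFD_EXE, 5.08 CPM in HFD_sed and 65.5 CPM in S. Slamf6, a surface marker of progenitor exhausted cells, had 103 CPM in HFD_EXE, 37.2 CPM in HFD_sed and 80.7 CPM in S. Of 12 naive genes, 7 were called higher and 0 lower in HFD_EXE over HFD_sed (median 1.18), and 0 higher and 5 lower in HFD_sed over S (median -0.90). Of 11 stem-like genes, which share 6 with the naive list, 7 were called higher and 1 lower in HFD_EXE over HFD_sed (median 1.19), and 1 higher and 5 lower in HFD_sed over S (median -0.97).

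Calls of Ccr7 and Lef1 ended under some alternatives. Ccr7 in HFD_EXE over HFD_sed was 0.53 on the log2 scale after thinning, against 1.62. Lef1 in HFD_sed over S was -0.48 after thinning, against -1.20, and Ccr7 there was -0.64 with at least 2 selecting UMIs, against -1.53.

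Residency genes differed gene by gene. Itga1, the collagen-binding integrin of resident T cells, had 266 CPM in HFD_EXE, 306 CPM in HFD_sed and 385 CPM in S, and Cd69, which holds cells in tissue by opposing S1PR1, 487 CPM, 598 CPM and 518 CPM. Neither was called. Rgs1, which damps chemokine receptor signals, had 390 CPM in HFD_EXE, 944 CPM in HFD_sed and 599 CPM in S and was called lower in HFD_EXE, though not without the Klra-positive cells (-0.95, against -1.28). Itgae (CD103) was scarce with 11 UMIs in HFD_EXE, 33 in HFD_sed and 17 in S, at 17.5 CPM, 5.41 CPM and 25.9 CPM. Of 14 residency genes, 0 were called higher and 2 lower in HFD_sed over S (median -0.24), and 2 higher and 3 lower in HFD_EXE over HFD_sed (median -0.50). S1pr1, the egress receptor, had 215 CPM in HFD_EXE, 90.7 CPM in HFD_sed and 171 CPM in S. Of 10 recirculation genes, 4 were called higher and 0 lower in HFD_EXE over HFD_sed, among them S1pr1, Klf3 and Ccr7, and the median was 0.68; in HFD_sed over S 1 was called higher and 2 lower (median -0.02). Cx3cr1, the fractalkine receptor of effector cells in blood, was the higher one, with 85.9 CPM in HFD_EXE, 54.4 CPM in HFD_sed and 7.62 CPM (5 UMIs) in S. The Klf3 call in HFD_EXE over HFD_sed, at a log2 ratio of 1.08, ended under some settings. It was 0.89 after thinning, 0.94 with at least 2 selecting UMIs, 0.94 without the Klra-positive cells and 0.80 without members of Cxcr6 alone.

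Cycling transcripts were scarce in HFD_EXE members. Mki67, which marks dividing cells, had 14.3 CPM in HFD_EXE, 133 CPM in HFD_sed and 97.5 CPM in S, and Top2a, which untangles DNA before division, 9.55 CPM, 130 CPM and 131 CPM. After thinning, Mki67 in HFD_EXE over HFD_sed was no longer called, at a log2 ratio of -1.88, against -3.21. Of 15 cell cycle genes, 10 were called lower and 0 higher in HFD_EXE over HFD_sed, with a median of -2.54, or -1.84 when the 3 genes at 0 UMIs in HFD_EXE are put at their bound of 3 UMIs. None was called in HFD_sed over S, where the median was -0.01. Cells with at least 2 UMIs of 7 cycle genes were 4 of 99 in HFD_EXE (4.04%, 1.11 to 10.0), 147 of 1441 in HFD_sed (10.2%, 8.69 to 11.9) and 14 of 104 in S (13.5%, 7.56 to 21.6). At the thinned depth they were 1.02% in HFD_EXE, 4.35% in HFD_sed and 5.77% in S, with overlapping intervals.

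Of the Ly49 receptors, which sense MHC class I on NK cells and some T cells, Klra3, Klra5, Klra6 and Klra7 were called lower in HFD_sed than in S and Klra1 higher. Klra7 had 17.5 CPM in HFD_EXE, 64.3 CPM in HFD_sed and 256 CPM in S, Klra5 0 CPM, 1.15 CPM and 143 CPM, and Klra3 28.6 CPM, 3.28 CPM and 136 CPM. Klra1 had 11.1 CPM in HFD_EXE, 38.7 CPM in HFD_sed and 13.7 CPM in S. Klra genes are near-identical copies, so how reads were split among them is uncertain. Klrb1c (NK1.1) had 50.9 CPM in HFD_EXE, 33.1 CPM in HFD_sed and 152 CPM in S. Klrc2, the activating counterpart of Klrc1, had 186 CPM in HFD_EXE, 54.6 CPM in HFD_sed and 129 CPM in S. Of 13 NK receptor genes, 2 were called higher and 3 lower in HFD_sed over S (median -0.53), and 3 higher and 4 lower in HFD_EXE over HFD_sed (median -0.65). Both medians changed sign without the Klra-positive cells, to 1.12 and 0.54. Those cells were picked by UMIs of Klra3, Klra5, Klra6 or Klra7, so the shift of an NK receptor list is partly built in.

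Of 16 interferon-induced genes, 5 were called higher and 0 lower in HFD_sed over S, and the median was 0.76, or 0.50 without the Klra-positive cells. Some of these calls ended under other settings: the log2 ratio of Isg15 was 0.91 and that of Gbp2 0.44 after thinning, and that of Mx1 0.32 without members of Cxcr6 alone. Ifit1, which binds viral RNA, had 27.0 CPM in HFD_EXE, 56.7 CPM in HFD_sed and 10.7 CPM in S, and Isg15, a ubiquitin-like protein, 68.4 CPM, 123 CPM and 59.4 CPM. In HFD_EXE over HFD_sed, Ifit1 was the 1 called lower of 16, and none was called higher (median -0.30); its log2 ratio of -1.07 missed 2-fold without doublets (-0.85). Immediate early genes, which respond to signals and to tissue handling within minutes, had 3 of 12 called higher and 0 lower in HFD_sed over S (median 0.70), and 0 higher and 4 lower in HFD_EXE over HFD_sed (median -0.90). Junb, for example, had 783 CPM in HFD_EXE, 1803 CPM in HFD_sed and 1144 CPM in S. The other CD8 T cells carried the same order, with 680 CPM, 1590.0 CPM and 825 CPM of Junb. Heat shock genes had 1 of 10 called higher and 1 lower in HFD_sed over S (median 0.32), and 0 higher and 1 lower in HFD_EXE over HFD_sed (median -0.71).

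Among cytokine receptors, HFD_EXE members also had more Il18r1, a chain of the interleukin 18 receptor, and Il12rb2, a chain of the interleukin 12 receptor. Il18r1 had 150 CPM in HFD_EXE, 55.7 CPM in HFD_sed and 76.2 CPM in S, and Il12rb2 36.6 CPM, 8.36 CPM and 24.4 CPM. Of 15, 5 were called higher and 1 lower in HFD_EXE over HFD_sed (median 0.43), and 2 higher and 2 lower in HFD_sed over S (median -0.34). Of 9 chemokine receptors, 1 was called higher and 3 lower in HFD_EXE over HFD_sed (median -0.43), and 3 higher and 2 lower in HFD_sed over S (median 0.40). Cxcr4 had 145 CPM in HFD_EXE, 207 CPM in HFD_sed and 77.7 CPM in S. Cd5 and Cd6, which tune signals of the T cell receptor, were called higher in HFD_sed than in S, by 3.80-fold and 4.07-fold. Cd5 had 121 CPM in HFD_EXE, 278 CPM in HFD_sed and 73.1 CPM in S, and Cd6 197 CPM, 558 CPM and 137 CPM. They were the 2 genes called of 15 of the receptor complex, as higher in HFD_sed over S (median 0.24) and as lower in HFD_EXE over HFD_sed (median -0.42). The lower call of Cd5, at a log2 ratio of -1.20, ended under some settings. It was -0.98 after thinning, -0.92 with at least 2 selecting UMIs and -0.83 without members of Cxcr6 alone. Of 14 genes of antigen receptor signalling, 1 was called higher and 2 lower in HFD_sed over S, and 0 higher and 2 lower in HFD_EXE over HFD_sed, with medians of -0.09 and -0.71. Glycolysis genes had 1 of 14 called higher in HFD_sed over S and 1 of 14 lower in HFD_EXE over HFD_sed, at medians of 0.28 and -0.32. Terminal effector genes had 3 of 10 called higher and 0 lower in HFD_sed over S (median 0.01), and 2 higher and 4 lower in HFD_EXE over HFD_sed (median -0.40).

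**Figure D4:**
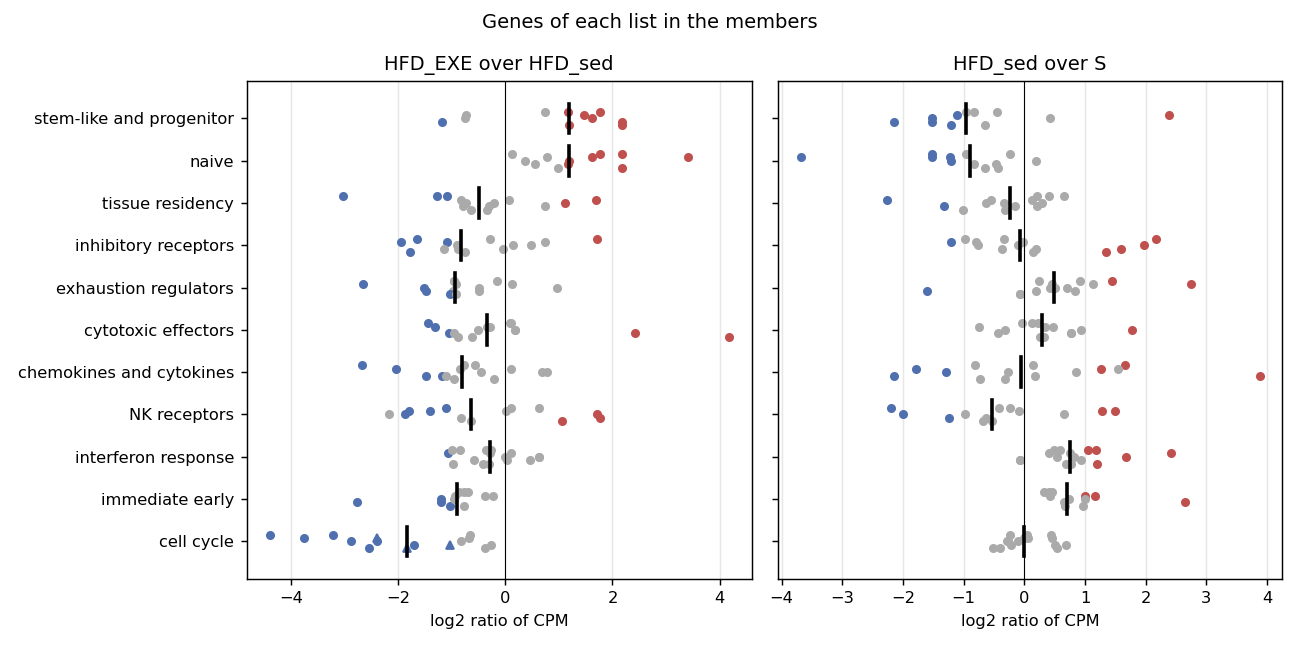
Log2 ratio of each measured gene (points, red where called higher, blue where called lower, grey otherwise) and the median (black bars) of the gene lists in the members, for HFD_EXE over HFD_sed (left) and HFD_sed over S (right); triangles are genes at 0 UMIs in HFD_EXE, put at their bound. The naive list has medians of 1.18 and -0.90, and the cell cycle list -1.84 and -0.01.

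Ranked over all genes by how far the interval lay from 1, the genes highest in HFD_sed over S were Fabp4, Lyz2, Cxcl9, Slc15a2 and Cxcl2. Of these, Fabp4 (fatty acid binding), Lyz2 (lysozyme of myeloid cells), Cxcl9 and Cxcl2 were more abundant in the cells outside the T cell gate of the same library than in the members. Lyz2 had 57.3 CPM in HFD_EXE, 894 CPM in HFD_sed and 35 CPM in S, against 723 CPM, 4190.0 CPM and 1235 CPM outside the gate. Slc15a2, a peptide transporter, had 1.59 CPM (1 UMI) in HFD_EXE, 55.4 CPM in HFD_sed and 0 CPM in S, against 4.66 CPM, 39.3 CPM and 0.64 CPM outside. In HFD_sed it was as frequent in other cells, at 75.3 CPM in the other CD8 T cells and in 12.5% of thinned B cells, against 8.55% of thinned members. It was at least 12.1-fold higher in HFD_sed than the floor of 3 UMIs in S. Genes lowest in HFD_sed over S were Klra5, Klra3, Dapl1, Cyp26b1 and Xcl1. The call of Cyp26b1 there, at a log2 ratio of -2.72, ended under some settings. It was -1.34 without doublets, -0.74 without cells with 1% or more UMIs of other cell types and -0.16 without members of Cxcr6 alone. For HFD_EXE over HFD_sed, Cyp26b1 was at 0.77 without cells with 1% or more UMIs of other cell types, against 3.34. In HFD_EXE over HFD_sed the highest were Gja4, Cyp26b1, Thbd, Rasd1 and Dapl1; the first 4 were more abundant outside the gate, Gja4 for example with 482 CPM against 79.5 CPM in members of HFD_EXE. Of the endothelial list, 6 of 10 genes were called higher in HFD_EXE over HFD_sed, and of the Kupffer list 6 of 10 lower; of the hepatocyte list, 12 of 15 were called lower in HFD_sed over S. The lowest in HFD_EXE over HFD_sed were H1f5, Lyz2, Pclaf, Top2a and Slc15a2. H1f5, a linker histone, had 1.59 CPM in HFD_EXE, 106 CPM in HFD_sed and 100.5 CPM in S.

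With the ranking kept to genes at least as abundant in members as outside the gate, a choice made after these values were seen, HFD_sed over S also put Cd6, Cd5, Ifit1, Ccl3, Ier5l, Ccl4, Tnfaip3, Themis and Zfp36l2 highest. Tnfaip3, the brake A20 on NF-kB, had 414 CPM in HFD_EXE, 742 CPM in HFD_sed and 311 CPM in S. Themis, needed in T cell development, had 177 CPM in HFD_EXE, 258 CPM in HFD_sed and 99.0 CPM in S. Its call in HFD_sed over S, at a log2 ratio of 1.38, ended under some settings. It was 0.84 without the Klra-positive cells and 0.97 without cells holding Cd4, Klrb1c or Zbtb16. The calls of Ier5l (1.4 after thinning, against 2.0) and Zfp36l2 (0.99 with at least 2 selecting UMIs, against 1.06) ended as well. In HFD_EXE over HFD_sed the highest in the same ranking included Dapl1, Il7r, Gzmm, Cmah, Satb1, Klrc2, Klhl6, Klrc1 and Gramd4. H1f5, Pclaf, Top2a, Slc15a2, H2ac24, Mki67, Ccl3, H2ac8, Ccl4 and Ier5l were lowest.

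Cells with transcripts of the Ly49 genes called lower in HFD_sed formed a large group in S. A UMI of Klra3, Klra5, Klra6 or Klra7 was found in 11 of 99 members of HFD_EXE (11.1%), 111 of 1441 of HFD_sed (7.70%) and 45 of 104 of S (43.3%, 33.6 to 53.4). This split was made after the values were seen, and these genes cannot support it. They are the Klra genes called lower in HFD_sed than in S, so the gap between those shares is partly built in. Klra1, called higher in HFD_sed, was left out of the split, and cells called Klra-negative below can hold it. The Klra-positive cells of S differed from the rest in much else. Cd8b1, the chain of the conventional CD8 heterodimer, was detected in 4.44% of Klra-positive and 91.5% of Klra-negative members of S. Cd8a was found in all 45 of the first and 81.4% of the second. The rule asked for a UMI of either gene, so every member without Cd8b1 had to hold Cd8a. Fcer1g, a signalling adaptor of NK and innate-like cells, was in all 45 and in 8.47%, Ikzf2 (Helios) in 86.7% and 5.08%, and Klrb1c in 71.1% and 15.2%. Gzma was in 71.1% and 8.47% of them and Xcl1 in 91.1% and 42.4%, whereas Cd5 was in 6.67% and 45.8%, Cd28 in 11.1% and 74.6%, and Pdcd1 in 0% and 15.2%. A floor of 3 cells puts the share with a Pdcd1 UMI at up to 6.67% for the 0 of 45, which does not limit the share expressing it.

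Klra-positive members of HFD_sed had a like pattern, with Cd8b1 in 23.4% and 88.0% of Klra-positive and Klra-negative cells, Ikzf2 in 75.7% and 3.61%, and Fcer1g in 77.5% and 18.1%. In the 11 Klra-positive members of HFD_EXE these values lay closer: Cd8b1 was in 81.8% and 84.1%, and Ikzf2 in 27.3% and 12.5%. Median depths were 8564 and 5662 UMIs in HFD_EXE, 4654 and 3362 in HFD_sed, and 4943 and 6689 in S, for Klra-positive and Klra-negative members. No Cd8b1 UMI was found in 16.2% of members of HFD_EXE, 16.9% of HFD_sed and 46.2% of S.

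**Figure D5:**
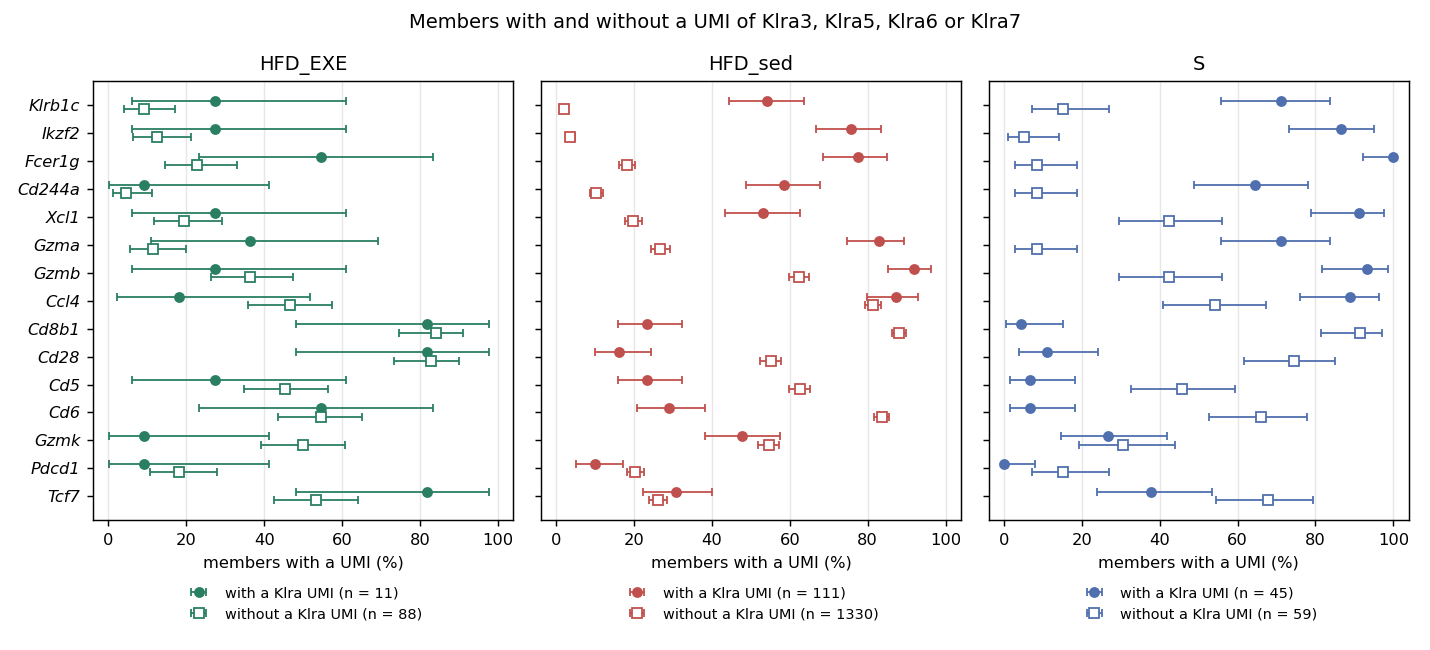
Percent of members with a UMI of named genes among Klra-positive and Klra-negative members of HFD_EXE, HFD_sed and S, with 95% exact binomial intervals. In S, Cd8b1 was in 4.44% of Klra-positive and 91.5% of Klra-negative members, and Ikzf2 in 86.7% and 5.08%.

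Among Klra-negative members, Gzma, Gzmb, Ccl3, Ccl4, Ccl5, Lag3 and Tox stood further apart between HFD_sed and S, while other genes did not. Gzma had 392 CPM in HFD_sed and 53.2 CPM in S, a 7.38-fold difference, where all members together had shown 887 CPM and 911 CPM. Gzmb had 627 CPM in HFD_sed and 249 CPM in S (2.52-fold), Ccl3 360 CPM and 19.3 CPM (18.6-fold) and Ccl4 2521 CPM and 542 CPM (4.66-fold). The Ccl3 level in S rested on 8 UMIs (log2 4.22, 3.24 to 5.43), and over all members the ratio was 0.47 after thinning. Ccl5 had 15150 CPM in HFD_sed and 6253 CPM in S (2.42-fold). Lag3 had 33.9 CPM in HFD_sed and 7.25 CPM on 3 UMIs in S (log2 2.23, 0.66 to 4.52). Tox had 248 CPM in HFD_sed and 82.2 CPM in S (3.02-fold). The Pdcd1 gap narrowed, to 72.4 CPM in HFD_sed and 24.2 CPM in S (log2 1.58, against 2.16 in all members). Ctla4 narrowed as well, to 0.96 against 1.34, and Fasl was at 0.89 against 0.93. Ifng had 189 CPM in HFD_sed and 232 CPM in S, with an interval that did not leave out a ratio of 1 (log2 -0.30, -0.60 to 0.018). The Xcl1 gap narrowed to 134 CPM in HFD_sed against 215 CPM in S, a log2 ratio of -0.68. Tcf7 (126 CPM in HFD_sed, 266 CPM in S), Lef1 (69.2 CPM and 203 CPM) and Slamf6 (38.3 CPM and 128 CPM) were lower in HFD_sed, and Mki67 was close, at 130 CPM and 143 CPM. Counts over all genes were 527 higher and 354 lower in HFD_sed over S among Klra-negative members.

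Between HFD_EXE and HFD_sed, Ccl4, Ccl3, Il7r and Mki67 kept their direction in the same step. Among Klra-negative members Ccl4 had 667 CPM in HFD_EXE and 2521 CPM in HFD_sed, Ccl3 66.0 CPM and 360 CPM, Il7r 1053 CPM and 260 CPM, and Mki67 15.1 CPM and 130 CPM. Ikzf2 turned: it was higher in HFD_EXE, at 67.8 CPM, than in HFD_sed, at 17.5 CPM (log2 1.95), where all members had 68.4 CPM and 96.1 CPM (log2 -0.49). Counts over all genes were 435 higher and 567 lower in HFD_EXE over HFD_sed.

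Within each library, members were set beside the CD8 T cells without a UMI of the selecting genes. Because the rule divided these cells, the differences are descriptions. In HFD_EXE 5.59% of 7975 measured genes were called, 4.01% as higher in members and 1.58% as lower. In HFD_sed 5.61% of 11779 were called, 3.42% as higher and 2.19% as lower, and in S 9.89% of 8368, 6.11% as higher and 3.79% as lower. Of 7575 genes measured in all 3 libraries, 27 (0.356%) were called higher in each and 29 (0.383%) lower in each; 33.9% were higher and 11.7% lower in each by sign alone. The 27 began, beside Cxcr6 and Gzmk, with Xcl1, Ccl4, Gzmb, Cd160 and Cish. Gzmb had 345 CPM in members and 37.0 CPM in other CD8 T cells of HFD_EXE, 855 CPM and 336 CPM in HFD_sed, and 618 CPM and 115 CPM in S. Cish, an inhibitor of cytokine signals, had 100.2 CPM and 18.5 CPM in HFD_EXE, 192 CPM and 77 CPM in HFD_sed, and 151 CPM and 24.3 CPM in S. Fasl, Ccl3 and Prdm1, a repressor of effector and resident T cells, were also among them, as was P2rx7, a receptor for extracellular ATP. Those lower in members included Ccr7, Il6ra, Actn1 and Dapl1. Ccr7 had 89.1 CPM in members and 424 CPM in others of HFD_EXE, 29.0 CPM and 277 CPM in HFD_sed, and 83.8 CPM and 502 CPM in S.

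The other CD8 T cells of HFD_sed were not devoid of effector transcripts. Gzma stood at 887 CPM in members and 476 CPM in others of HFD_sed, against 326 CPM and 4.63 CPM in HFD_EXE and 911 CPM and 267 CPM in S. Cell cycle genes were called higher in members for 11 of 15 in HFD_sed and 9 of 12 in S, and for 0 of 6 in HFD_EXE, where 1 was lower. Mki67 had 14.3 CPM and 8.34 CPM in members and others of HFD_EXE, 133 CPM and 20.1 CPM in HFD_sed, and 97.5 CPM and 13.8 CPM in S.

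Members differed by the gene through which they entered. In HFD_EXE, the 46 cells with Cxcr6 alone had 371 CPM of Tcf7, 1373 CPM of Il7r and 143 CPM of Ccl4. The 36 cells of HFD_EXE with Gzmk and no Pdcd1 had 169 CPM of Tcf7, 910 CPM of Il7r and 1048 CPM of Ccl4. Its 17 cells with Pdcd1 had 176 CPM of Tcf7, 623 CPM of Il7r and 1308 CPM of Ccl4, and 342 CPM of Tox against 53.5 CPM in cells with Cxcr6 alone. The Cxcr6-alone cells of HFD_EXE were thus the ones highest in Tcf7 and Il7r and lowest in Ccl4. In HFD_sed the classes were close for Ccl4, at 2675 CPM in 531 cells with Cxcr6 alone, 2558 CPM in 629 with Gzmk and 2158 CPM in 281 with Pdcd1. Mki67 there was lower with Cxcr6 alone, at 66.3 CPM, than with Gzmk, at 166 CPM, or Pdcd1, at 165 CPM. In S the Klra7 level was 277 CPM in 71 cells with Cxcr6 alone, 294 CPM in 24 with Gzmk and 0 CPM in 9 with Pdcd1.

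Over all CD8 T cells, Pdcd1 was more frequent in cells with Gzmk than in cells without it. It was in 20% of cells with Gzmk and 3.87% without in HFD_EXE, in 19.3% and 12.4% in HFD_sed, and in 20% and 1.15% in S. At the thinned depth the pair was 8.68% and 6.64% in HFD_sed, with overlapping intervals, and rested on 2 and 1 cells with both in HFD_EXE and S. Tcf7 was in 60.6% of cells with Cxcr6 and 82.3% without in HFD_EXE, in 25.4% and 43.6% in HFD_sed, and in 50.6% and 84.7% in S. Gzmb was in 39.4% of cells with Cxcr6 and 6.63% without in HFD_EXE, in 65.6% and 46.2% in HFD_sed, and in 66.3% and 16.8% in S. After thinning Tcf7 was in 6.67% and 44.0% in HFD_EXE, 13.9% and 19.7% in HFD_sed, and 13.3% and 44.6% in S, so the order held in each library.

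Few cells held a transcript of a receptor variable segment, since 3' libraries seldom reach it, and segments of a family are close copies. In HFD_sed, 203 of 1441 members had a UMI of a Trav segment, and Trav8d-2 was in 107 of them (52.7%, 45.6 to 59.7) and Trav4-2 in 45. In the other CD8 T cells of HFD_sed, Trav8d-2 was in 11 of 41 such cells (26.8%, 14.2 to 42.9). Trbv4 was in 32 of 86 members of HFD_sed with a Trbv segment (37.2%) and in 6 of 25 others. In S, Trbv16 was in 12 of 23 members with a Trbv segment (52.2%) and 8 of 30 others (26.7%). Trbv16 was found in 22.2% of Klra-positive and 3.39% of Klra-negative members of S. Of members of HFD_sed, Mki67 was in 24.3% of the 107 with Trav8d-2 and 15.3% of the 1238 with no Trav UMI, and Gzmb in 73.8% and 64.0%. In the 56 with a segment other than Trav8d-2 and Trav4-2 the shares were 19.6% and 69.6%, with intervals that overlap those of Trav8d-2. Detection of a segment in 3' data depends on the transcript's own priming, so these shares are not clone sizes.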

How the data were processed

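Whole-number UMI counts per gene and cell barcode were deposited by the authors, made with Cell Ranger 6.1.2 against GRCm39 per the submitters' processing notes. The filters and the rule for members are those given above, and 3 of the 4 libraries were analysed. The members, gene lists and comparisons were chosen with earlier results of these data known. UMIs were summed over members per library, divided by all UMIs of those cells (CPM), with exact Poisson intervals for levels, exact conditional binomial intervals for ratios and Clopper-Pearson intervals for shares, all at 95%. With 1 library per group no test was run. Thinning drew 1500 UMIs per cell without replacement. A count of 0 was bounded at 3 UMIs. Named genes were the selecting genes, up to 4 called genes per list, genes of the checkpoint, granzyme and residency lists, and per direction the 5 genes over all whose interval lay farthest from 1 with at least 50 CPM (without mitochondrial, ribosomal, haemoglobin, receptor segment, sex-linked, hepatocyte and erythroid genes); 10 more per direction, at least as abundant as outside the T cell gate, were added later. Other genes in the text, such as Tox, Prf1, Nkg7, Ifng, Maf, Ccl5, Klra1 and the receptor segments, were named with their values seen. Some genes were counted in their lists but are not reported singly here. Promoter sequences came from a RefSeq table of build GRCm38.p6, another build than that of the counts. Doublets were scored with Scrublet in scanpy 1.11.5 and cut at 0.219 in each library, in place of the automatic cuts. Computations used numpy 2.4.6, scipy 1.17.1 and pandas 2.3.3 and were tested on simulated data.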

Additional observations from a re-analysis of the deposited data

How the results depend on the processing

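No paired analysis was possible because each group is 1 library. The share of CD8 T cells that were members was highest in HFD_sed and lowest in S under each of the 10 settings tried. It was 25.8% in HFD_EXE, 58.9% in HFD_sed and 22.7% in S with at least 2 UMIs of the selecting genes, and 22.9%, 61.8% and 19.8% after thinning. In S it was 27.5% without cells holding Cd4, Klrb1c or Zbtb16 and 28.1% without Klra-positive cells. Leaving out Klra-positive cells, cells with 1% or more UMIs of other cell types and cells over 20000 UMIs was chosen after seeing the data. Genes higher in HFD_sed over S numbered 93 after thinning, 353 without cells with 1% or more UMIs of other cell types, 1330 with equal weight per cell and no interval, 955 at a fold of 1.5 and 1417 with no interval. Genes lower there numbered 180 after thinning, 713 with equal weight, 226 with at least 50 UMIs, 561 with no minimum and 613 at a fold of 1.5. In HFD_EXE over HFD_sed, higher genes numbered 274 with at least 2 UMIs of the selecting genes, 303 without doublets, 101 after thinning, 313 without cells rich in other cell types, 297 without members of Cxcr6 alone, 860 with equal weight, 733 with no minimum and 746 at a fold of 1.5. Lower genes there numbered 103 after thinning, 1416 with equal weight, 1017 at a fold of 1.5 and 1460 with no interval. Members over other CD8 T cells had 0 genes higher and 7 lower in all 3 libraries after thinning, which leaves fewer UMIs to count. Signs turned in HFD_sed over S after thinning for the medians of cytotoxic effectors (-0.071), glycolysis (-0.18), cytokine receptors (0.29) and heat shock (-0.042), and for Il12rb1 (-0.57) and Tyrobp (-0.72). In HFD_EXE over HFD_sed thinning turned Atf3 (0.027), Gzma (0.22) and Hspa1a (3.12). Ier3 turned to -0.11 in HFD_sed over S without cells rich in other cell types. Without Klra-positive cells, NK receptors (1.12), Ikzf2 (1.27) and Klrc2 (0.044) turned in HFD_sed over S, and NK receptors (0.54) in HFD_EXE over HFD_sed. Without members of Cxcr6 alone, inhibitory receptors (0.030) and NK receptors (0.21) turned in HFD_EXE over HFD_sed. The cause was not tested. Calls of named genes ended most often after thinning, 20 in HFD_sed over S and 15 in HFD_EXE over HFD_sed.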
